A study of Sus scrofa with 6 samples.

Results

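Transforming growth factor beta 2 and 3 (TGFB2 and TGFB3), the inhibitors of DNA binding ID1 and ID3, and follistatin (FST) are 5 genes of the TGF-beta and bone morphogenetic protein (BMP) pathways. They were taken by gene symbol, as every probe set that the array platform's annotation gives to one of them. This gave 10 probe sets for 5 of the 6765 genes with a single symbol, out of 23999 probe sets that are not controls. TGFB2 has 4 probe sets, TGFB3 and FST have 2 each, and ID1 and ID3 have 1 each.

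TGF-beta ligands are secreted in a latent form, and once freed they bind a pair of serine/threonine kinase receptors that phosphorylate SMAD2 and SMAD3. BMPs act through related receptors that phosphorylate SMAD1, SMAD5 and SMAD9, and ID1 and ID3 are among the genes those SMADs switch on most directly. In cartilage, TGF-beta signalling holds back hypertrophy and sustains the articular phenotype, BMP signalling drives chondrocyte proliferation and hypertrophy in the growth plate, and follistatin binds activins and some BMPs outside the cell.

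Total RNA was measured in pig growth plate cartilage, which lengthens growing bones, and in pig articular cartilage, which lines joints. There were 6 conditions with 1 Affymetrix array each. The growth plate conditions were native tissue and cultured chondrocytes at day 10 and day 20 of differentiation, and the articular conditions were the same 3. Chondrocytes of both cartilages were freed with collagenase and grown in DMEM/Ham's F12 medium holding fetal bovine serum and antibiotics, with no added factor, at 37 °C. The atmosphere held 5% oxygen and 5% carbon dioxide. The labels give no age, breed or sex, and do not say whether samples came from 1 animal or a pool or whether a tissue's 3 arrays share an animal. No condition was replicated, so the spread between samples of 1 condition is unknown, and a ratio between 2 arrays has no replicate check.

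Signals are linear and had been scaled so that all arrays share a trimmed mean of about 400.1. A floor was set at a signal of 36.1, the 40th percentile of all signals, below which values were not read as levels. Of the 10 probe sets, 9 lay above the floor on at least 2 arrays, and a gene was represented by its brightest probe set, giving 5601 genes tested. All 6 measured chondrocyte markers lay above the floor on every array, from HAPLN1 at 12888 to 16970 and ACAN at 6596 to 15883 down to SOX9, at 118 to 175 in growth plate samples, against 982, 81.0 and 76.8 in articular samples. The hypertrophic marker COL10A1 lay at 1114 to 2375 in growth plate samples and below the floor in all 3 articular samples. The rest of its list did not all do so. SPP1 was highest in native articular cartilage, at 19241, against 11654 to 14127 in growth plate samples. IBSP had 53.2, 309 and 5958 in articular samples, against 10642 to 15675, and IHH had 48.0 to 69.4, against 82.1 to 448. ALPL and MMP13 each passed the floor in 1 articular sample, at 90.9 at day 20 and 39.8 in native tissue. Of 5 endothelial markers 4 were below the floor on all arrays, as were the leukocyte markers PTPRC and CD163. The fifth, PECAM1, had 52.6 to 67.2 in growth plate samples, against 277, 118 and 65.6 in articular samples, highest in native articular cartilage. The haemoglobin gene HBB had 234 to 610 over the 6 arrays, and the leukocyte marker CD14 was above the floor on 1 array, growth plate day 10, at 43.8. The native articular array stood apart, since its log2 signals correlated with those of the rest at 0.889 on average, against 0.930 to 0.939 for the other 5. Fitted differences that it moves are also given without it, whereas native ratios, articular culture folds and articular culture responses use it and have no value without it. A tissue difference fitted without it rests on the 4 cultured arrays alone, since native growth plate then has no partner.

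**Figure D1:**
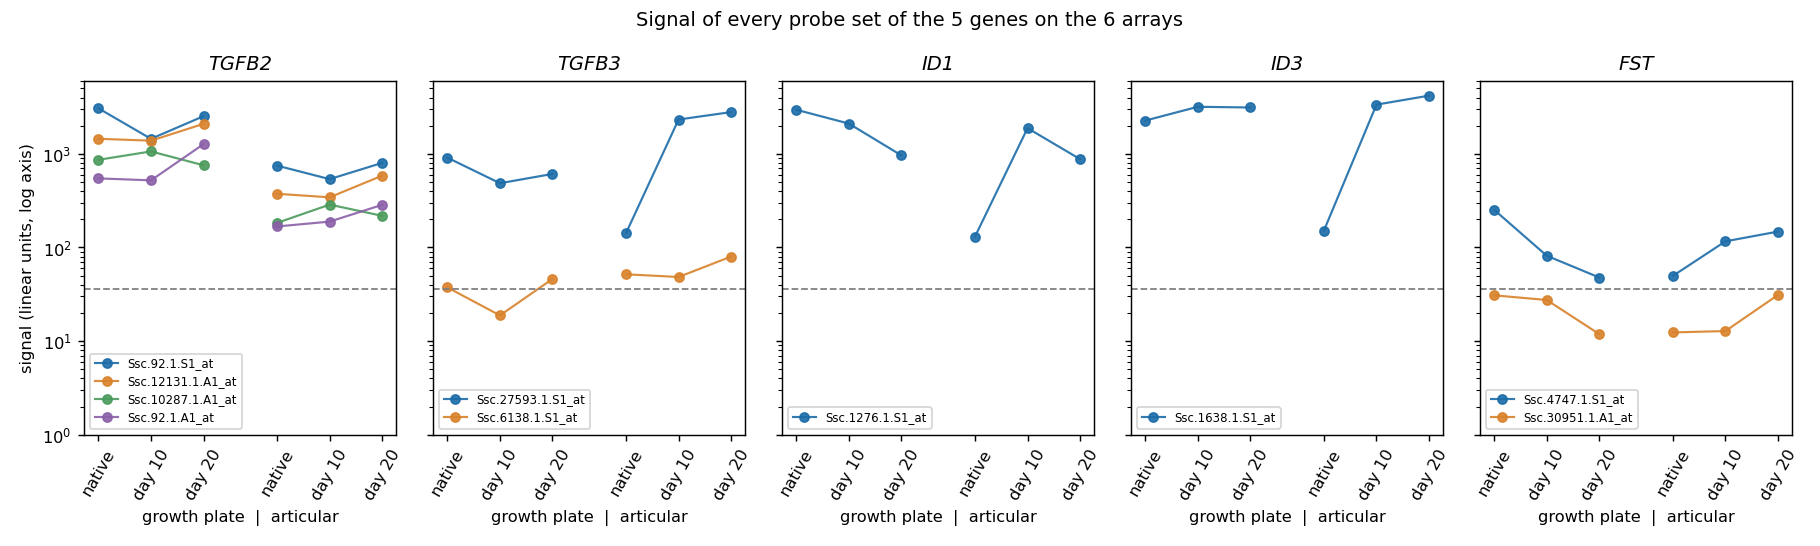
Signal of each probe set (linear units, log axis) on the 6 arrays, growth plate on the left and articular on the right of each panel, each point 1 array and each colour 1 probe set; the dashed line is the floor of 36.1. All 4 TGFB2 probe sets sit higher in growth plate at every stage, whereas TGFB3, ID1 and ID3 have their lowest main signal in native articular cartilage, at 143, 131 and 152.

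In native tissue the brightest probe set of all 5 genes had at least 4-fold more signal in growth plate than in articular cartilage. That size was reached by 3.45% of all genes in that direction. The genes had been chosen with this known, and TGFB2 and FST drop under 4-fold with some other treatments of the signals: the TGFB2 log2 ratio of 2.03 was 1.78 after median centring. The second TGFB3 probe set went the other way in native tissue, at a log2 ratio of -0.46. The second brightest and dimmest TGFB2 probe sets were under 4-fold, at 1.95 and 1.71. The second FST probe set lay below the floor. After culture the 5 genes parted ways. TGFB2 was still higher in growth plate cells, ID1 and ID3 each differed by at most 1.34-fold between the tissues' cultures, and TGFB3 and FST were lower in growth plate than in articular cultures.

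TGFB2, a secreted TGF-beta isoform, kept 1 direction between the tissues at every stage. Its brightest probe set had signals of 3066, 1448 and 2526 in native, day 10 and day 20 growth plate samples, against 749, 537 and 801 in the articular samples. The 3 growth plate signals all lay above the 3 articular ones, as for 4.62% of genes tested. On the main probe sets, TGFB2 was the 1 gene of the 5 whose arrays did not overlap. An exact permutation test of 3 against 3 cannot go below 0.10, so none is given for a single gene. The ratios of growth plate over articular were 4.09-fold in native tissue, 2.70-fold at day 10 and 3.15-fold at day 20.

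Every other TGFB2 probe set gave the same direction. The second brightest had 1450, 1384 and 2093 in growth plate samples, against 375, 343 and 585 in articular samples. The third had 864, 1062 and 756 in growth plate samples, against 183, 287 and 218 in articular samples. The dimmest had 547, 522 and 1270 in growth plate samples, against 168, 189 and 285 in articular samples. Over the 4 probe sets and 3 stages the 12 ratios ran from 2.70-fold to 4.72-fold, all in favour of growth plate. The 4 probe sets share the same RNA and are not replicates. Of 1481 genes with at least 2 probe sets past the filter, 4 (0.270%) had every probe set at least 2-fold higher in growth plate at all 3 stages. Picked out after their values were seen, the other 3 were ANGPT1, SHROOM2 and SKAP2.

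An additive model of tissue and stage, fitted with limma across all genes, gave TGFB2 a log2 difference between growth plate and articular of 1.71 ± 0.20 (SE). Its limma adjusted p was 0.126, so TGFB2 was not called at the 0.05 threshold. None of the 5 genes was called for tissue, where 3 of the 5601 genes (0.0536%) were. By an unadjusted p under 0.05, 1 of the 5 passed for tissue (TGFB2), as did 10.7% of all genes. With every probe set as a feature, the 4 TGFB2 probe sets had log2 differences of 1.71 ± 0.21, 1.93 ± 0.20, 1.97 ± 0.25 and 1.77 ± 0.27 (SE), with limma adjusted p between 0.121 and 0.211. The residual of this model is only the departure from a sum of a tissue and a stage effect, on 2 degrees of freedom. Without the native articular array, and so from the cultures alone, the TGFB2 difference was 1.54.

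**Figure D2:**
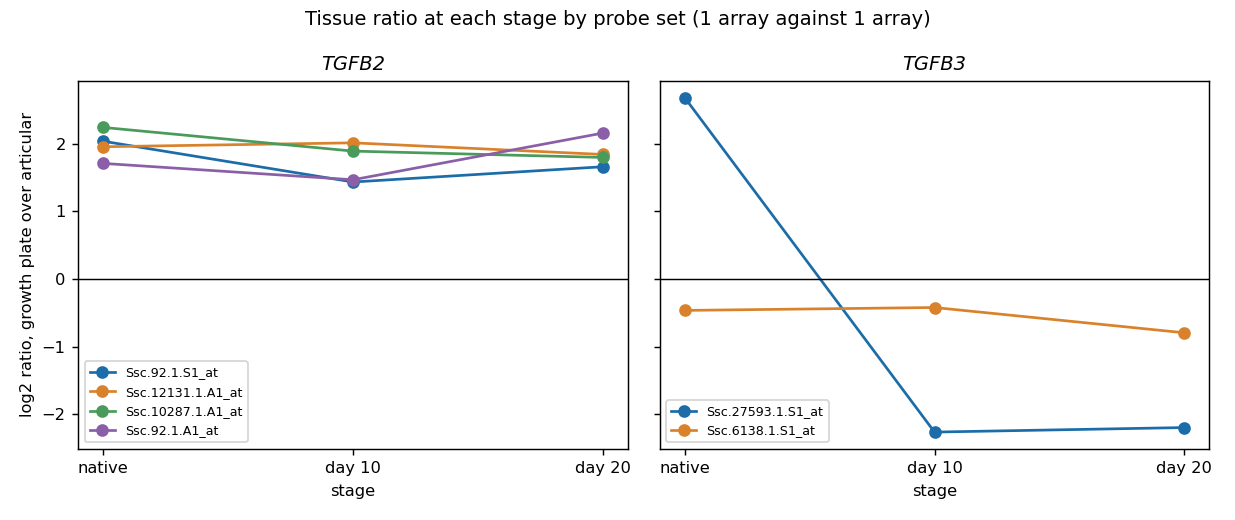
Log2 ratio of growth plate over articular signal at each stage for each probe set of TGFB2 and TGFB3, 1 array against 1 array, with lines joining the stages. The 12 TGFB2 ratios lie between 1.43 and 2.24, while the bright TGFB3 probe set goes through 2.68, -2.26 and -2.19 and its dim one is drawn at -0.46, -0.42 and -0.79, the second of these an upper bound set by the floor.

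The time in culture was read less evenly by the TGFB2 probe sets. At day 10 relative to native growth plate, the log2 ratio was -1.08 for the brightest probe set, but -0.07, 0.30 and -0.07 for the others in order of brightness. At day 20 relative to native growth plate, it was 1.22 for the dimmest probe set, and -0.28, 0.53 and -0.19 for the rest in the same order. The probe sets therefore differ more among themselves on culture within a tissue than on the tissue difference. For the main probe set the limma log2 difference was -0.44 ± 0.22 for culture against native (adjusted p = 0.328) and 0.69 ± 0.25 for day 20 against day 10 (adjusted p = 0.309).

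TGFB3, the third TGF-beta isoform, stood on opposite sides in native tissue and in culture on its bright probe set. It had signals of 911, 486 and 610 in native, day 10 and day 20 growth plate samples, against 143, 2329 and 2794 in articular samples. Growth plate was 6.39-fold higher in native tissue, and then 4.79-fold lower at day 10 and 4.58-fold lower at day 20. TGFB3 was the 1 gene of the 5 at least 4-fold lower in growth plate cultures at day 10, where 0.500% of genes were, and again at day 20, where 0.750% were. The articular signals span the wider range, being lowest of the 6 arrays in native tissue and highest in both cultures. Articular cultures were 16.3-fold higher than native articular cartilage at day 10 and 19.6-fold higher at day 20. In growth plate, day 10 was 1.88-fold lower and day 20 1.49-fold lower than native tissue.

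Only 14 of the 5601 genes had a larger ratio than TGFB3 of day 10 over native in articular samples, and 31 at day 20. The reversal between native tissue and culture had few parallels: in 11 genes (0.196%) growth plate signals exceeded articular ones 2-fold or more in native tissue and were 2-fold or more below them on both culture days. The averaged limma tissue difference of TGFB3 was -0.59 ± 0.99 (adjusted p = 0.824), an average over opposite signs. Fitted to the 4 cultured arrays alone, TGFB3 was called lower in growth plate cultures, by a limma log2 difference of -2.23 ± 0.17 (adjusted p = 0.0373). That fit called 0.232% of genes for tissue and has 1 residual degree of freedom.

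The second TGFB3 probe set was dim. It had 37.4, 18.8 and 46.1 in growth plate samples, against 51.7, 48.4 and 80.0 in articular samples, with the growth plate day 10 signal below the floor. All 3 growth plate signals lay below the 3 articular ones, as for the main probe sets of 6.16% of genes, with log2 ratios of -0.46, at most -0.42, and -0.79. The culture direction of TGFB3 is thus the same on both probe sets, but the native direction and the large articular culture ratio rest on the bright probe set alone.

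FST encodes follistatin, the secreted protein that neutralises activins. Its signal was low throughout. Its brighter probe set had 252, 81.6 and 47.8 in native, day 10 and day 20 growth plate samples, against 49.7, 116 and 148 in articular samples. Growth plate signals were lower at each later stage and articular signals were higher. The order crossed between native tissue, where growth plate was 5.07-fold higher, and day 20, where it was 3.10-fold lower. At day 10 growth plate was 1.43-fold lower.

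Within growth plate, FST was 5.28-fold lower at day 20 than in native tissue, the 1 gene of the 5 that was at least 4-fold lower there, where 0.661% of genes were. Within articular samples it was 2.34-fold higher at day 10 and 2.97-fold higher at day 20 than in native tissue. The averaged limma differences were 0.07 ± 0.74 for tissue (adjusted p = 0.979), -0.31 ± 0.79 for culture against native (adjusted p = 0.851) and -0.21 ± 0.91 for day 20 against day 10 (adjusted p = 0.940). Without the native articular array the FST difference was -1.07 for tissue, from the cultures alone, and -2.01 for culture. Without the native growth plate array the culture difference had the other sign, at 1.40. With 1 native array left out, the native arm is 1 array, so only sizes are given. With the lowest signals at 47.8 and 49.7, close to the floor, the size of these ratios depends on how low signals are treated. With the floor at the 60th percentile the native log2 ratio of 2.34 became at least 0.89. The second probe set lay below the floor on all 6 arrays, at 11.9 to 31.1, and gives no ratio.

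ID1 and ID3 encode helix-loop-helix proteins without a DNA-binding region, which tie up E proteins and so hold back differentiation factors. ID1 had signals of 2959, 2106 and 963 in native, day 10 and day 20 growth plate samples, against 131, 1882 and 878 in articular samples. ID3 had 2268, 3185 and 3129 in growth plate samples, against 152, 3358 and 4190 in articular samples. For both genes 1 array, native articular cartilage, lay far below the other 5, which spanned 878 to 2959 for ID1 and 2268 to 4190 for ID3.

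Native growth plate exceeded native articular cartilage 22.7-fold for ID1 and 15.0-fold for ID3, and 18 and 27 of the 5601 genes had a larger ratio. In culture the tissues were close. ID1 was 1.12-fold higher in growth plate cells at day 10 and 1.10-fold higher at day 20. ID3 was 1.05-fold lower at day 10 and 1.34-fold lower at day 20. Such a profile, a ratio of 2-fold or more in native tissue and a smaller one on both culture days, was seen in 9.68% of genes.

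Against native articular cartilage, ID1 was 14.4-fold higher in articular cultures at day 10 and 6.72-fold higher at day 20. ID3 was 22.1-fold and 27.6-fold higher. With TGFB3 these made 3 of 5 whose articular cultures exceeded native tissue by 4-fold or more at day 10, as 4.46% of genes did, and again at day 20, as 4.37% did. In native tissue the same 3 also favoured growth plate by 4-fold or more, a combination found in 77 genes (1.37%). Each condition of that combination uses the native articular array. In growth plate, ID3 was 1.40-fold higher at day 10 and 1.38-fold higher at day 20 than in native tissue, and ID1 was 1.40-fold and 3.07-fold lower.

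ID1 and ID3 parted between the culture days. ID1 was lower at day 20 than at day 10 by 2.19-fold in growth plate and 2.14-fold in articular cultures, with at least 2-fold lower signals at day 20 in 7.07% and 5.57% of genes. ID3 showed no such step, being 1.02-fold lower in growth plate and 1.25-fold higher in articular cultures. By main probe sets, ID1 was the 1 gene of the 5 with at least a 2-fold step between the culture days, while the dimmest TGFB2 probe set was 2.44-fold higher at day 20 in growth plate cultures. In the limma fit to all arrays the ID1 day 20 against day 10 difference was -1.11 ± 1.07 (adjusted p = 0.687). In the fit to the 4 cultured arrays it was -1.11 ± 0.17 (limma adjusted p = 0.0366), and 3.71% of genes were called there. The 1 residual degree of freedom of that fit is only the difference between the tissues' steps, not spread between samples.

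In the fit to all arrays the ID1 tissue difference was 1.60 ± 0.88 (adjusted p = 0.540) and that of ID3 was 1.14 ± 0.84 (adjusted p = 0.623). Without the native articular array, and so from the cultures alone, the tissue differences were 0.15 for ID1 and -0.25 for ID3. For culture against native, ID1 had 1.12 ± 0.93 (adjusted p = 0.536) and ID3 had 2.55 ± 0.89 (adjusted p = 0.207). Without the native articular array the culture differences were -1.06 ± 0.19 for ID1 and 0.48 ± 0.19 for ID3, with limma adjusted p of 0.139 and 0.292. These are the growth plate responses alone, with a native arm of 1 array, native growth plate. For culture against native 0 of 5 genes were called (0% of all genes), and 1 of 5 had an unadjusted p under 0.05 (ID3), as did 19.4% of all genes. For day 20 against day 10 the same counts were 0 of 5 (0% of all genes) and 1 of 5 (TGFB2), beside 14.6% of all genes.

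**Figure D3:**
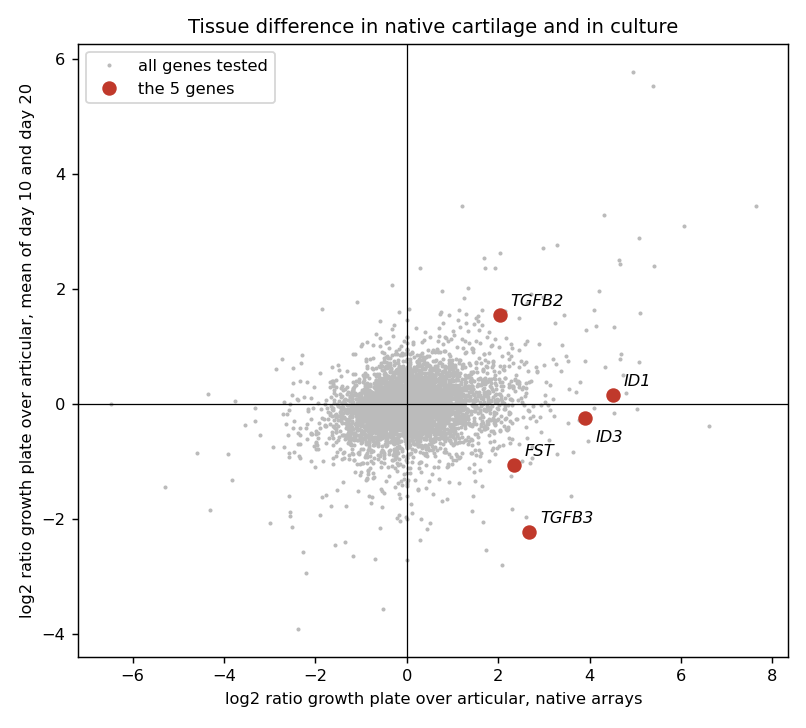
Log2 ratio of growth plate over articular signal in native tissue (x axis) against the mean of day 10 and day 20 (y axis), for all 5601 genes in grey and the 5 genes in red. All 5 lie at 2.03 or more on the x axis, while on the y axis they run from 1.54 for TGFB2, through 0.15 for ID1, -0.25 for ID3 and -1.07 for FST, to -2.23 for TGFB3.

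The mean log2 difference of the culture days from native tissue is the culture response of a gene. TGFB3 had a culture response of -0.74 in growth plate and 4.16 in articular samples. ID1 had -1.06 in growth plate and 3.30 in articular samples, and ID3 had 0.48 and 4.63. FST had -2.01 in growth plate and 1.40 in articular samples. TGFB2 had -0.68 in growth plate and -0.19 in articular samples. The difference between the tissues' responses was -2 or lower on the log2 scale for 4 of the 5 genes, and for 3.89% of all genes. With 1 term for this difference added to the model, which leaves 1 residual degree of freedom, limma called 3 of the 5 genes (TGFB3, ID1 and ID3) and 0.589% of all genes. An unadjusted p under 0.05 was reached by 4 of the 5 and by 21.9% of all genes. The genes had been chosen with these patterns known. The differences were -4.90 ± 0.33 for TGFB3, -4.35 ± 0.31 for ID1 and -4.15 ± 0.29 for ID3 (SE), each with an adjusted p of 0.0206. FST had -3.41 ± 0.62 (adjusted p = 0.0799) and TGFB2 had -0.49 ± 0.31 (adjusted p = 0.40). Of 10 other treatments of the signals, the calls held in 4 for TGFB3, 5 for ID1 and 4 for ID3, with adjusted p of up to 0.192. All 3 were lost with no intensity trend, with probe sets averaged or each taken alone, and with quantile normalization or median centring. Each native arm is 1 array, and the term was added after the values were seen.

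Some cell markers had their lowest or highest signal in native articular cartilage. The summed signal of the 4 measured fibroblast markers (COL1A2, COL3A1, POSTN and THY1) was 7315, 3417 and 11878 in growth plate samples, against 2044, 8243 and 12891 in articular samples, lowest in native articular cartilage. THY1 alone made up 6583 of the 7315 in native growth plate and 1818 of the 2044 in native articular cartilage, and POSTN was lowest not there but in growth plate cultures at day 10, both values being below the floor. The chondrocyte markers did not go 1 way in native articular cartilage. SOX9, the chondrocyte transcription factor, was highest there, at 982, as were COL2A1 and ACAN. COMP and COL11A1 were lowest there, at 3390 and 378, and HAPLN1 was neither. The part of these in the ID1, ID3 and TGFB3 values was not tested. In bulk RNA, fewer cells of a type and less RNA per cell cannot be told apart.

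The wider pathway was read from 9 lists by role, with 82 genes in all, of which 39 were on the array under a single symbol and 34 were tested. The 34 include the 5 genes of this report, which were chosen with their native ratios known. None of the 34 was called by limma for tissue, culture or day, and 4, 10 and 2 had an unadjusted p under 0.05 in these comparisons, beside 10.7%, 19.4% and 14.6% of all genes. By size, 6 of the 34 (TGFB2, ID1 and ID3 among them) were fitted at least 2-fold higher in growth plate and 0 at least 2-fold lower, beside 168 and 125 of all 5601 genes. The median log2 tissue difference was 0.00 over the 34 genes and -0.04 over all genes. In native tissue alone, 10 of the 34 favoured growth plate 2-fold or more, beside 12.9% of all genes. All 5 of the chosen genes were among these 10, and the rest were ACVR1B, BMPR1B, BAMBI, DLX5 and PMEPA1. Articular cartilage was favoured by 3 of the 34, beside 7.91% of all genes. Without the native articular array, and so from the cultures alone, 4 were fitted at least 2-fold higher in growth plate and 2 lower.

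Among the 5 ligands of the TGF-beta and activin list, 1 was fitted at least 2-fold higher in growth plate (TGFB2), and the median was -0.16. TGFB1 had 426, 391 and 718 in growth plate samples, against 564, 212 and 296 in articular samples. It was thus lower in native growth plate, at a log2 ratio of -0.41, but higher in growth plate cultures. That is the reverse of the bright TGFB3 probe set, while the dim one was lower in growth plate at every stage. INHBA, the activin A subunit that follistatin binds, had 229, 223 and 210 in growth plate samples, against 439, 318 and 301 in articular samples. No growth plate signal reached the lowest articular one, as for 6.16% of genes tested.

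Of 5 BMP and GDF ligands none was fitted 2-fold apart between tissues, with a median of 0.08. BMP4 had 290, 320 and 267 in growth plate samples, against 153, 107 and 570 in articular samples. BMP7 had 107, 97.0 and 28.6 in growth plate samples, against 534, 24.6 and 29.1 in articular samples, with the last growth plate value and both articular culture values below the floor. Its native articular signal stood above that of native growth plate, opposite to the BMP target genes ID1 and ID3. MSTN, an inhibitor of muscle growth, was above the floor only at day 20, at 133 in growth plate and 113 in articular cultures.

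Receptors and SMADs had medians of -0.00 over 8 genes and -0.18 over 3, with none fitted 2-fold apart. TGFBR1, the type I TGF-beta receptor, had 2929, 2167 and 2048 in growth plate samples, against 6323, 1656 and 1528 in articular samples. ACVR1, a type I BMP receptor, had 3005, 2384 and 2387 in growth plate samples, against 5743, 1533 and 2081 in articular samples. SMAD3, the effector of TGF-beta, had 188, 105 and 95.8 in growth plate samples, against 693, 76.5 and 149 in articular samples. On their main probe sets (1 of 2 for ACVR1 was at least 2-fold lower in native growth plate) all 3 had their highest signal of the 6 arrays in native articular cartilage, where ID1, ID3 and TGFB3 had their lowest. Large shifts from that array were common either way. Of all 5601 genes, 537 were at least 2-fold lower and 900 higher in articular cultures at day 10 than in native tissue, and 496 and 836 at day 20. BMPR1A, a type I BMP receptor, had 1362, 1136 and 938 in growth plate samples, against 830, 1199 and 1153 in articular samples.

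Inhibitors other than FST were BAMBI, a decoy receptor for TGF-beta and BMP, and FSTL3, a relative of follistatin. BAMBI had 963, 2130 and 825 in growth plate samples, against 156, 527 and 729 in articular samples. Both of its probe sets favoured native growth plate by 2-fold or more. FSTL3 had 302, 337 and 496 in growth plate samples, against 351, 504 and 361 in articular samples.

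Of the 5 BMP targets tested, 3 were fitted at least 2-fold higher in growth plate, beside 168 of all 5601 genes, and the list's median log2 difference was 1.14. ID4 and MSX1 were fitted lower, at -0.62 and -0.10. Of the 3, ID1 and ID3 are genes of this report, chosen with their native ratios known, and 1.14 is the value of ID3 itself. The third beside ID1 and ID3 was DLX5, a homeobox factor of chondrocyte and osteoblast maturation, with 746, 1164 and 521 in growth plate samples, against 101, 443 and 325 in articular samples. ID4 did not share the pattern of its relatives, with 108, 92.7 and 18.1 in growth plate samples, against 145, 90.6 and 99.0 in articular samples. MSX1, a homeobox factor, had 37.4, 55.8 and 75.8 in growth plate samples, against 17.5, 57.6 and 93.5 in articular samples, the native articular value being below the floor. ID2 was on the array but did not pass the filter. Without the native articular array, and so from the cultures alone, the list's median was -0.17, with 1 of 5 at least 2-fold higher.

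Of 2 TGF-beta targets tested, PMEPA1, an inhibitor of the pathway induced by TGF-beta, had 952, 935 and 1198 in growth plate samples, against 175, 978 and 678 in articular samples. Of its 5 probe sets past the filter, 3 favoured native growth plate by 2-fold or more and 0 the reverse. TGIF1, a SMAD corepressor, had 1631, 589 and 1229 in growth plate samples, against 2213, 834 and 1005 in articular samples. Among genes of latency and activation, THBS1, which frees latent TGF-beta, had 6853, 5633 and 6479 in growth plate samples, against 6755, 5756 and 6699 in articular samples on its brightest probe set, but 1 of its 5 probe sets favoured native growth plate by 2-fold or more. FBN1, the microfibril protein that anchors latent TGF-beta complexes, had 2800, 2210 and 3097 in growth plate samples, against 3343, 4716 and 5545 in articular samples. Of the E proteins that ID proteins bind, TCF4 was on the array but did not pass the filter, and TCF3 and TCF12 were not analysed here.

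**Figure D4:**
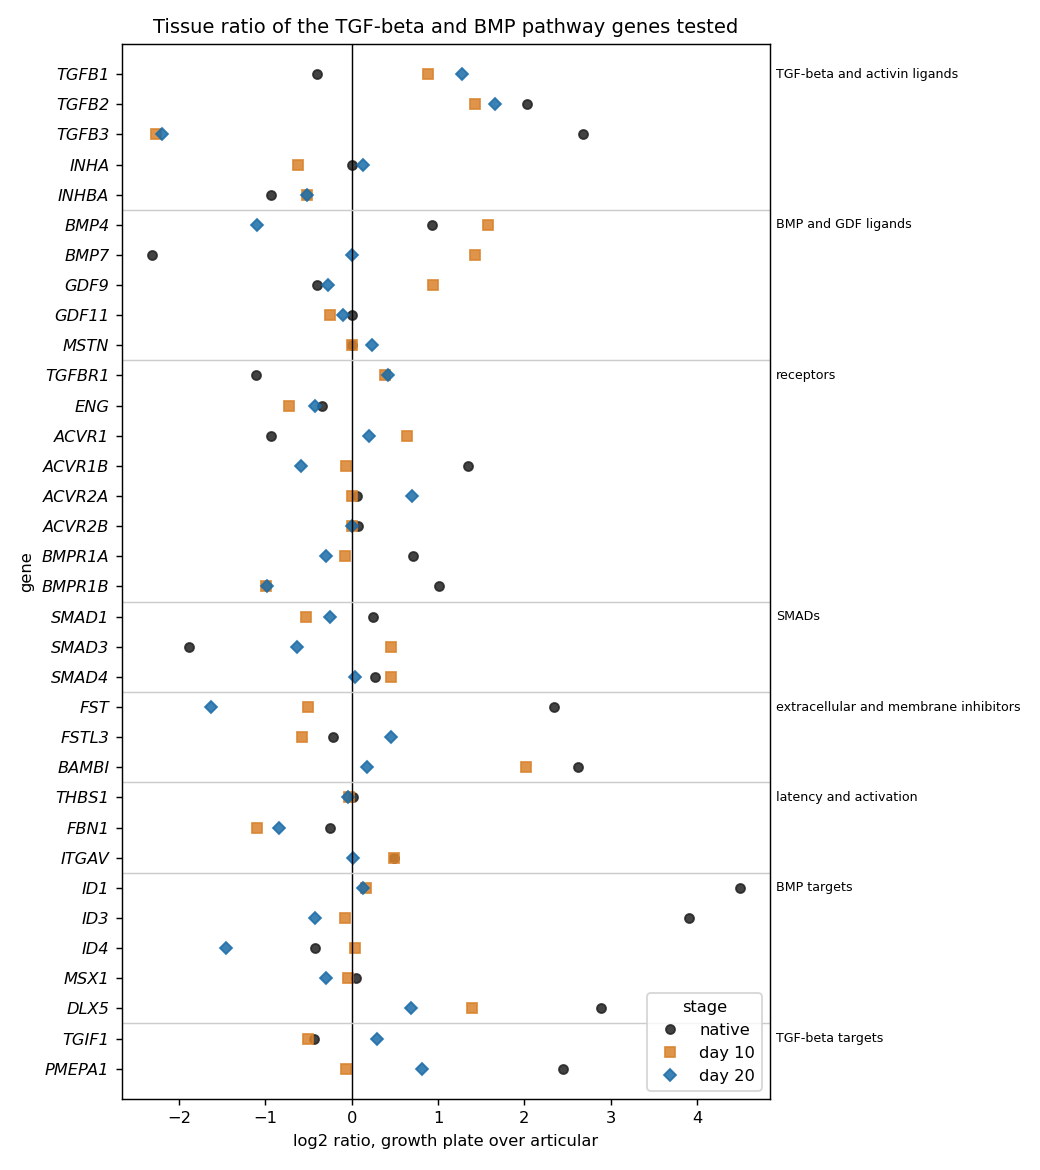
Log2 ratio of growth plate over articular signal for the 34 pathway genes tested, grouped by role, with 1 point per stage, each 1 array against 1 array. ID1 and ID3 have the highest native ratios, at 4.50 and 3.90, with culture ratios near 0. On their main probe sets TGFB1 and TGFB3 change sides in opposite directions, TGFB1 from a native ratio of -0.41.

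The genes most like each of the 5 over the 6 arrays were sought by Pearson correlation of log2 signal among 2696 genes with at least a 2-fold range and no signal below the floor. The number of arrays makes high values common, so these are descriptions. For TGFB2 they were GCC2, ATP8B1 and ST3GAL1 (r of 0.97, 0.96 and 0.96), and 17 genes had r over 0.9. For TGFB3 they were GSDMD, ISYNA1 and FNTA (r of 0.98, 0.98 and 0.97). FNTA, a subunit of farnesyltransferase, had 3299, 1259 and 2079 in growth plate samples, against 773, 9509 and 13604 in articular samples.

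For ID1 they were TTC14, HSDL2 and ING3, each with r of 0.99, and 105 genes had r over 0.9. For ID3 they were MGP, ABRAXAS2 and FKBP14 (r of 0.996, 0.995 and 0.993), and 234 genes had r over 0.9, more than for any of the other 4. MGP, the matrix inhibitor of calcification, had 11145 to 12436 in growth plate samples, against 3057, 11549 and 14244 in articular samples. For FST they were PSRC1, IGFBP6 and F2R (r of 0.98, 0.96 and 0.95), and 7 genes had r over 0.9. F2R, the thrombin receptor, had 358, 71.5 and 51.4 in growth plate samples, against 58.4, 241 and 235 in articular samples.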

How the data were processed

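Signal intensity values, 1 per probe set and array, were deposited by the authors, and came from GCOS 1.4, per the submitters' processing notes. Genome build, scaling target and annotation version are not given in the sources used here. Per the labels' protocols, 100 ng of total RNA was amplified in 2 cycles. Of 24123 rows, 124 controls were left out. Of the 23999 others, 10069 had 1 gene symbol in the platform annotation, 198 had several and 13732 had none. Symbols were updated through RefSeq's pig gene table (Sscrofa11.1), used for names only. Signals under the floor of 36.1 were set to it, log2 was taken, and probe sets above it on at least 2 arrays were kept, with the brightest per gene. Limma 3.58.1 in R 4.3.3 fitted tissue and stage with an intensity trend, and calls needed a difference of 2-fold or more with a p under 0.05 after Benjamini-Hochberg adjustment. The residual has 2 degrees of freedom. The p-values set each difference against the departure from additivity, not against spread between animals. Pairs of single arrays were described by a 4-fold size with no test. The number of arrays limits the precision. The fit was tested on simulated data with independent noise and differences added to growth plate arrays. Such data cannot show how arrays of 1 condition vary, so they do not check the p-values given here. Named genes are the 5 with every probe set, up to 3 per pathway list of largest absolute difference in each contrast, the 3 genes most like each of the 5, and cell markers; some pathway genes outside this rule were chosen after their values were seen. The genes and lists were chosen with earlier results of these data known. The per-probe-set shares and the lists without the native articular array were added after seeing the data, as was a fit with 1 tissue-by-culture term. No sequence was used.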

Additional observations from a re-analysis of the deposited data

Results flagged for a closer look

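These differences between tissues were picked out because the growth plate and articular arrays moved in opposite directions, or because the tissue ratio changed sign between native tissue and culture. Each rests on 1 array per condition. The limma test of the difference, given above, is no separate check, since the genes were picked by the same contrast and its term was added after the values were seen. Its 1 residual degree of freedom is the change of the tissue ratio between day 10 and day 20. It holds nothing on how a native array varies. For TGFB3 the log2 ratio of growth plate over articular was 4.90 higher in native tissue than in the mean of the culture days, and the same contrast read as a culture response was -4.90 for growth plate minus articular. For ID1 the culture response differed by -4.35, with -1.06 in growth plate and 3.30 in articular samples. For ID3 the native tissue ratio exceeded the culture mean by 4.15. For FST it did so by 3.41, and its culture response differed by -3.41. Of 10 other treatments of the signals, the test called TGFB3 in 4, ID1 in 5, ID3 in 4 and FST in 2. All these differences use the native articular array, which has the lowest correlation to the others.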

How the results depend on the processing

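No paired analysis was possible because the labels number no replicates; stage, a term of the fit, already sets the tissues side by side within each stage. Of the fitted differences of the 5 genes under the alternatives, 218 kept direction and call, 23 reversed and 9 became calls; of 270 values for pairs of single arrays, 232 kept sign and side of 4-fold, 10 stayed under 4-fold with the other sign, 10 lay at 0, 14 dropped under 4-fold, 2 passed it and 2 that were past it reversed. Reversals outside the left-out arrays and the fit to the 4 cultured arrays were the FST tissue difference at -0.025 with median centring, FST day 20 against day 10 at 0.061 with the floor at the 60th percentile, and TGFB2 culture against native at 0.15 with the mean of its probe sets. With the 4 cultured arrays only, the ID3 and FST tissue differences reversed, to -0.25 and -1.07. In that fit TGFB3 had a tissue difference of -2.23 (limma adjusted p = 0.0373), and ID1 had -1.11 for day (adjusted p = 0.0366). The native TGFB2 log2 ratio was 1.995 with quantile normalization, 1.78 with median centring, 1.98 with a pseudocount, and 1.95 and 1.71 on its second brightest and dimmest probe sets, which gave 2.01 at day 10 and 2.15 at day 20. The dim TGFB3 probe set gave -0.46, at most -0.42, and -0.79 between tissues, and -0.095 and 0.63 for articular day 10 and day 20 over native. The native FST ratio was at least 0.89 with the floor at the 60th percentile and 1.75 with a pseudocount, its growth plate day 20 over native ratio at most -0.89 and -1.78 in the same order, and its other probe set gave 0 for both, being below the floor. Genes called for tissue, 3 in the report, were 6 with quantile normalization, 8 with median centring (4 higher and 4 lower, against 2 higher and 1 lower), 5 and 6 with the floor at the 25th and 60th percentile, 6 with a pseudocount, 0 with no filter, with all 6 arrays above the floor or with every probe set, 1 without the trend and 13 on the cultured arrays. For culture, 0 in the report, they were 9, 5, 4, 3 and 1 with median centring, the 60th percentile floor, a pseudocount, all 6 arrays above the floor and every probe set; for day, 0 in the report, 208 on the cultured arrays. The culture response difference, 33 genes called in the report, lost its calls for TGFB3, ID1 and ID3 with quantile normalization (-4.65, -4.10 and -3.91), median centring (-4.65, -4.11 and -3.90), the mean of probe sets (-2.52, -4.35 and -4.15), and every probe set or no trend (-4.90, -4.35 and -4.15); without a filter TGFB3 and ID3 lost theirs at -4.90 and -4.15. FST was called with a pseudocount (-2.50) and with all 6 arrays above the floor (-3.41). Genes called were 0 with quantile normalization, median centring, the mean of probe sets, every probe set or no trend, 10 and 9 with the floor at the 25th and 60th percentile, 329 with a pseudocount and 627 with all 6 arrays above the floor. With a culture array left out this fit has no residual, and with a native array left out the difference has no value. Leaving out each array in turn in the additive fit, the tissue difference ran from 1.54 to 1.85 for TGFB2, -2.23 to 0.24 for TGFB3, 0.15 to 2.33 for ID1, -0.25 to 1.91 for ID3 and -1.07 to 0.92 for FST, with 0 to 13 genes called. For culture it ran from -0.68 to -0.19 for TGFB2, -0.74 to 4.16 for TGFB3, -1.06 to 3.30 for ID1, 0.48 to 4.63 for ID3 and -2.01 to 1.40 for FST, with 0 to 886 called. For day it ran from 0.48 to 0.90 for TGFB2, -0.95 to 1.55 for TGFB3, -2.21 to -0.015 for ID1, -1.02 to 1.31 for ID3 and -1.49 to 1.06 for FST, with 0 to 223 called. The cause of these shifts was not tested. Signals near the floor, as for FST, limit the size of its ratios.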
